A study of Homo sapiens with 10 samples.

Results

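The genes described here are those of the Hippo pathway and its nuclear output: the coactivators YAP1 and WWTR1 (which encodes TAZ), the DNA-binding factors TEAD1, TEAD2, TEAD3 and TEAD4, the kinase LATS1, and the target genes CCN1, CCN2 and ANKRD1. Of these 10 genes, 9 had a probe set that the platform annotation gives to that gene alone, out of 14232 genes measured in this way. Where a gene had several such probe sets, the brightest of them, by its mean level over the 10 arrays, was used. LATS1 was read only by a probe set that it shares with PPIL4, so it has no value of its own.

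RNA levels came from Affymetrix exon arrays of the human neuroblastoma line SH-SY5Y in 2 stably transfected forms, with 5 arrays each. One carried wild-type SOD1, the gene of copper-zinc superoxide dismutase (samples 2, 8, 11, 14 and 17), and the other SOD1(G93A), whose mutation causes inherited amyotrophic lateral sclerosis (samples 3, 9, 12, 15 and 18). All cells kept their transfected DNA under Geneticin (G418), and the sources used here do not name the promoter of the constructs. They also do not say whether a line was a clone or a pool, or whether the samples of a group were separate cultures. The p-values therefore rest on a spread between samples that may be technical, and an effect of the construct cannot be told apart from other differences between the lines.

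Values are log2 intensities after RMA, which removes background, aligns the arrays by quantiles and summarises the probes of a gene. Differences are SOD1(G93A) minus wild-type SOD1 on this log2 scale, with the standard error (SE) of limma, and a gene counts as called where p, adjusted over all 22011 probe sets, was at most 0.05. The lower quartile of all probe sets lay between 3.84 and 3.89 in the 10 arrays. Below it differences are compressed, and the table has no detection calls. Array medians were 6.26 to 6.34, and arrays correlated at 0.990 to 0.994 within groups and 0.986 to 0.990 between them. SOD1 itself, which the probe set cannot split into native and transfected RNA, was not called (−0.23, adjusted p = 0.107 by limma).

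In the Hippo pathway, the kinases STK3 and STK4 activate LATS1 and LATS2, which phosphorylate YAP and TAZ and so hold them out of the nucleus. When the kinases are inactive, YAP and TAZ enter the nucleus, bind TEAD factors and switch on genes such as CCN1, CCN2 and ANKRD1. The pathway responds to cell contact, cell shape and matrix stiffness, and much of its control acts on proteins, which these arrays do not measure. In neuroblastoma, YAP activity is known mainly from the mesenchymal, adherent cell state.

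YAP1 and CCN1 were higher in the SOD1(G93A) line, and CCN2 and ANKRD1 stayed near the bottom of the scale in both lines. Of the 9 measured genes 2 rose and 0 fell by limma, against 9.60% called in either direction, 4.03% higher and 5.57% lower, among all named genes. The counts were also 2 and 0 by the unmoderated test, and at an unadjusted p under 0.05, which 21.7% of named genes passed, they were 4 higher and 1 lower. With so few genes, this share is a description. The median difference was 0.16 over the 9 genes and −0.00433 over all named genes. None of the 9 reached the absolute log2 fold change of 1 that the labels also ask for, which 1.18% of named genes passed together with the adjusted p.

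**Figure D1:**
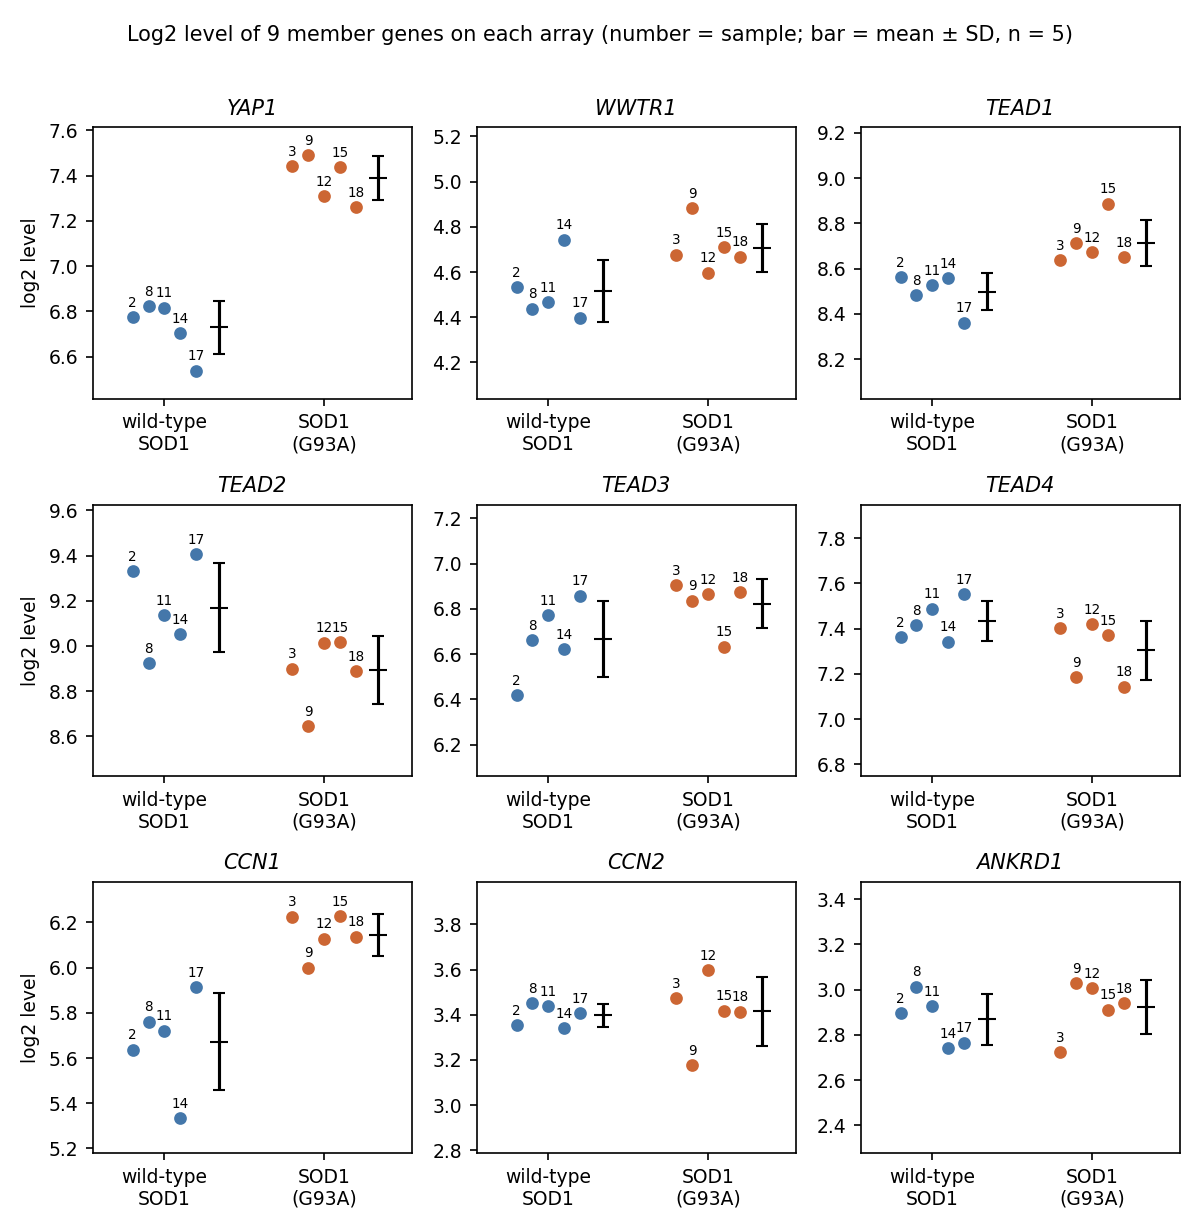
Each panel plots 1 gene: the vertical axis is the log2 level, dots are arrays with their sample number, and bars are the mean ± SD of 5 arrays. All panels span the same 1.2 log2 units; the groups are apart for YAP1, TEAD1 and CCN1, and overlap in the other 6 genes.

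YAP1, the coactivator that LATS kinases restrain, showed the widest separation. In the wild-type SOD1 arrays its level was 6.77, 6.82, 6.82, 6.70 and 6.54 in samples 2, 8, 11, 14 and 17. In the SOD1(G93A) arrays it was 7.44, 7.49, 7.31, 7.44 and 7.26 in samples 3, 9, 12, 15 and 18. All SOD1(G93A) arrays lay above all wild-type arrays, with a gap of 0.44 between the groups, and samples 17 and 18 were the lowest of their groups. The means were 6.73 ± 0.12 and 7.39 ± 0.10 (SD, n = 5 each), a rise of 0.66 (SE 0.07) or 1.58-fold, with a 95% interval of 1.41 to 1.76 (adjusted p = 0.000192 by limma). The rise stayed between 0.61 and 0.69 when any 1 array was left out. A further probe set, annotated to both STXBP5 and YAP1, was also higher, from 6.96 ± 0.15 to 7.36 ± 0.08 (SD, n = 5 each; difference 0.40, SE 0.08, adjusted p = 0.00829 by limma), but it cannot be assigned to either gene.

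WWTR1 encodes TAZ, the paralog of YAP, and moved less. Its level was 4.53, 4.44, 4.47, 4.74 and 4.40 in the wild-type samples 2, 8, 11, 14 and 17 and 4.68, 4.88, 4.60, 4.71 and 4.67 in the SOD1(G93A) samples 3, 9, 12, 15 and 18. The groups overlapped through wild-type sample 14 alone, which lay above all SOD1(G93A) arrays except sample 9. The difference was 0.19 (SE 0.08, 95% interval 0.018 to 0.36) and did not pass the threshold (adjusted p = 0.214 by limma, 0.0693 to 0.40 over 18 alternatives). Whether the 2 coactivators differed in their change was tested directly: per array, YAP1 minus WWTR1 was larger in the SOD1(G93A) line by 0.47 (95% interval 0.27 to 0.66), with all 5 arrays above all wild-type arrays. The exact permutation test gave p = 0.00794, the smallest that 5 arrays against 5 allow, and an adjusted p of 0.0159 over the 4 such differences tested. WWTR1 lay above the lower quartile but under the median of every array. Its smaller measured change therefore need not mean a smaller change of its RNA, and the difference partly restates the rise of YAP1.

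The TEAD factors bring YAP and TAZ to DNA. By the probe sets used, 0 of the 4 were called by limma, and 2 (TEAD1 higher, TEAD2 lower) had an unadjusted p under 0.05. TEAD1 was read by 2 probe sets of its own, and they gave different calls. On the probe set used, the level was 8.56, 8.48, 8.53, 8.56 and 8.36 in wild-type samples 2, 8, 11, 14 and 17, and 8.64, 8.71, 8.67, 8.89 and 8.65 in SOD1(G93A) samples 3, 9, 12, 15 and 18. The groups did not overlap, with a gap of 0.077, as was so for 3 of the 9 genes (YAP1, TEAD1 and CCN1) and for 11.4% of all named genes. The difference was 0.21 (SE 0.07, adjusted p = 0.0833 by limma). On the other TEAD1 probe set the level was 8.25, 8.35, 8.38, 8.37 and 8.34 in the same wild-type order and 8.58, 8.92, 8.48, 8.90 and 8.89 in the same SOD1(G93A) order. There the difference of 0.41 (SE 0.09) was called (adjusted p = 0.0198 by limma), and the SOD1(G93A) arrays were spread more widely, from 8.48 to 8.92. The mean of both probe sets differed by 0.31 and was called as well (adjusted p = 0.0178 by limma), so the call on TEAD1 depends on the probe set.

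TEAD2, the TEAD factor of early embryos and neural progenitors, lay the other way. Its level was 9.33, 8.92, 9.14, 9.05 and 9.41 in wild-type samples 2, 8, 11, 14 and 17 and 8.90, 8.64, 9.01, 9.02 and 8.89 in SOD1(G93A) samples 3, 9, 12, 15 and 18. All wild-type arrays except sample 8 were above all SOD1(G93A) arrays. The difference was −0.28 (SE 0.11, adjusted p = 0.175 by limma). TEAD3 ranged from 6.42 to 6.86 with wild-type SOD1 and from 6.63 to 6.91 with SOD1(G93A) (difference 0.16, SE 0.09, adjusted p = 0.394). TEAD4 ranged from 7.34 to 7.55 and from 7.14 to 7.42 (difference −0.13, SE 0.07, adjusted p = 0.404). The 95% intervals were −0.51 to −0.044 for TEAD2, −0.038 to 0.35 for TEAD3 and −0.29 to 0.034 for TEAD4.

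**Figure D2:**
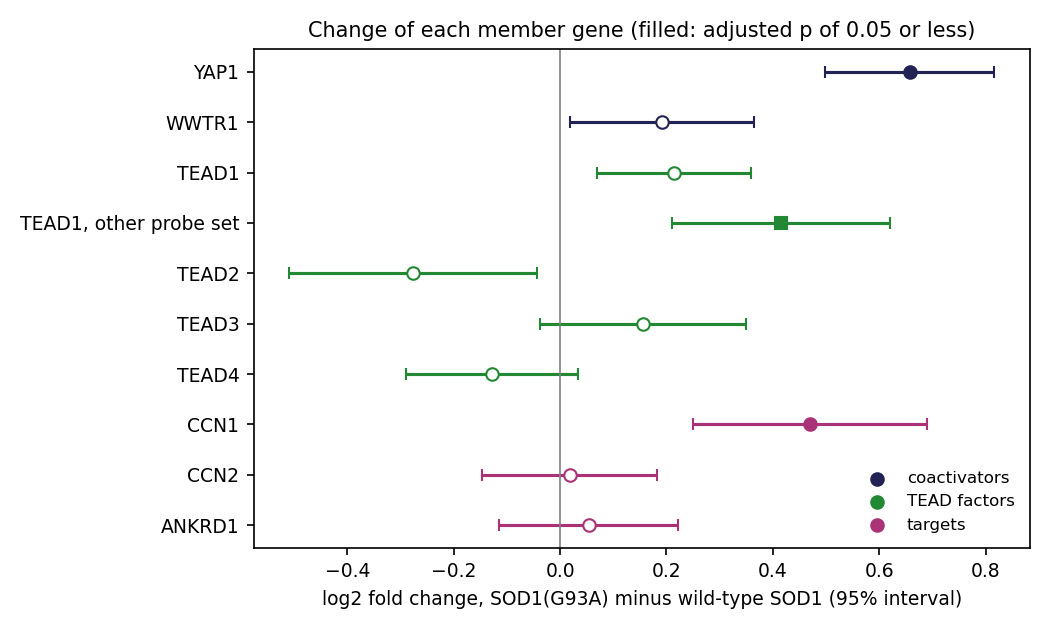
The horizontal axis is the log2 fold change, SOD1(G93A) minus wild-type SOD1, and bars are 95% intervals of limma (n = 5 arrays each); filled symbols were called, and the square is the TEAD1 probe set not used in the counts. YAP1 (0.66), CCN1 (0.47) and the other TEAD1 probe set (0.41) are filled, and CCN2 (0.018) and ANKRD1 (0.054) lie at 0 within their intervals.

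LATS1, the kinase that restrains YAP and TAZ, could not be described alone. The probe set shared by LATS1 and PPIL4 read 7.11 ± 0.08 with wild-type SOD1 and 7.07 ± 0.09 with SOD1(G93A) (SD, n = 5 each; difference −0.038, SE 0.06, adjusted p = 0.835 by limma).

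The targets were compared next. The promoters of CCN2 and ANKRD1 are shown because TEAD factors recognise a short motif, GGAATG, near many of their target genes; CCN1 had no window in the table used. The windows are the 250 bases before the transcription start from RefSeq on GRCh38.p14, read 5′ to 3′ on the gene's strand, with GGAATG (searched on both strands, as GGAATG or CATTCC) in capitals. The CCN2 window is chr6:131951373-131951622 (minus strand), that of ANKRD1 chr10:90921088-90921337 (minus strand), and that of YAP1, shown as the regulator that rose, chr11:102110197-102110446 (plus strand).
CCN2: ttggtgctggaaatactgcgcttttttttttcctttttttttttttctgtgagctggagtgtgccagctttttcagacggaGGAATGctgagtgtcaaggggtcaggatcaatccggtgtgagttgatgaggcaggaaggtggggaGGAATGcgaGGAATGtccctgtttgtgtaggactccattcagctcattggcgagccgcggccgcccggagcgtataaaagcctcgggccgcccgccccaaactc
ANKRD1: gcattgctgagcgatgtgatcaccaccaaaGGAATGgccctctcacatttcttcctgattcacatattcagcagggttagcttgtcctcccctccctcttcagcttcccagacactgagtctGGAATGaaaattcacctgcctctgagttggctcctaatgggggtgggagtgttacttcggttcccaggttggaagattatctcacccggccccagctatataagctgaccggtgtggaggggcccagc
YAP1: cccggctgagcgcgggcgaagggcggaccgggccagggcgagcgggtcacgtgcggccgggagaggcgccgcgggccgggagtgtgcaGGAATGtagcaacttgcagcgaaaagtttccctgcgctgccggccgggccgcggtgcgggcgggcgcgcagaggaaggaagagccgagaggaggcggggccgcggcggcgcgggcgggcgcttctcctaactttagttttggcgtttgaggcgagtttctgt

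CCN2 held the motif 3 times, beginning 169, 104 and 95 bases before the start, and ANKRD1 held it 2 times, at 220 and 128 bases. YAP1 held it once, at 162 bases. Of 35116 RefSeq promoter windows of this length, 11.9% held at least 1 copy, 0.94% at least 2 and 0.0826% at least 3. The windows of WWTR1, TEAD2, TEAD3 and LATS1 held none. In all, 7 of the 10 genes had windows in the table, 10 windows in total; CCN1, TEAD1 and TEAD4 had none. AP-1 motifs are often found beside TEAD motifs, and a looser pattern, TGANTCA, which reads the same on both strands, was searched. It occurred in 1 window each of ANKRD1 (as TGATTCA) and LATS1 (as TGAATCA), against 6.57% of all windows. The AP-1 motif itself has C or G in the middle, so neither match is that motif. A match describes the letters of the window and does not show binding.

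CCN1, formerly CYR61, encodes a secreted matricellular protein and is an early target of YAP. Its level was 5.64, 5.76, 5.72, 5.33 and 5.91 in wild-type samples 2, 8, 11, 14 and 17 and 6.22, 6.0, 6.13, 6.23 and 6.14 in SOD1(G93A) samples 3, 9, 12, 15 and 18. The groups did not overlap, but wild-type sample 17 came within 0.086 of SOD1(G93A) sample 9, and wild-type sample 14 lay lowest. The means were 5.67 ± 0.21 and 6.14 ± 0.09 (SD, n = 5 each), a rise of 0.47 (SE 0.10) or 1.38-fold, with a 95% interval of 1.19 to 1.61 (adjusted p = 0.0150 by limma). Leaving out any 1 array gave rises of 0.38 to 0.53, with adjusted p from 0.00807 to 0.0434 by limma. The call was lost in a fit with a block of consecutive sample numbers, described in the last section (adjusted p = 0.0642 by limma).

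CCN2, formerly CTGF, encodes a connective tissue growth factor and is the target most often used to read YAP activity. Its level was 3.35, 3.45, 3.44, 3.34 and 3.41 with wild-type SOD1 and 3.47, 3.18, 3.60, 3.42 and 3.41 with SOD1(G93A), in the same sample order. SOD1(G93A) samples 9 and 12 were the lowest and the highest of all 10 arrays, and the wild-type arrays lay between them. The difference was 0.018 (SE 0.07, adjusted p = 0.945 by limma), with a 95% interval from 0.90-fold to 1.14-fold. ANKRD1 encodes a cardiac ankyrin repeat protein. Its level was 2.90, 3.01, 2.93, 2.74 and 2.76 with wild-type SOD1 and 2.72, 3.03, 3.01, 2.91 and 2.94 with SOD1(G93A). The groups overlapped throughout, and the difference was 0.054 (SE 0.08, adjusted p = 0.802 by limma), with a 95% interval from 0.92-fold to 1.17-fold. Both genes lay under each array's lower quartile on all 10 arrays, where a change in RNA may leave the value unmoved, so these intervals bound the measured values and not the RNA.

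The targets were also compared with each other, although CCN2 and ANKRD1 lay under the lower quartile on all arrays, so CCN1 minus either gene mostly restates the rise of CCN1 and does not show that the RNAs of the targets changed differently. CCN1 minus CCN2 was higher in the SOD1(G93A) arrays by 0.45 (95% interval 0.23 to 0.68; exact permutation p = 0.00794, adjusted p = 0.0159 over the 4 differences), with all 5 arrays above all wild-type arrays. CCN1 minus ANKRD1 was higher by 0.42 (95% interval 0.12 to 0.71; exact permutation p = 0.0238, adjusted p = 0.0317), with 3 of 5 arrays above all wild-type arrays. CCN2 minus ANKRD1 differed by −0.036 (95% interval −0.28 to 0.21; exact permutation p = 0.778, adjusted p = 0.778). In that pair both genes are dim, so its p does not show that they changed alike.

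Within the groups, YAP1 and its targets did not vary together in a way that passed a test. Deviations from the group means over the 10 arrays gave r = −0.21 for YAP1 with CCN1 (exact permutation p = 0.601, Spearman rho −0.067, exact permutation p = 0.876). Without samples 17 and 18, whose YAP1 deviations were farthest from the median deviation, r was 0.42. For YAP1 with CCN2 r was −0.29 (exact permutation p = 0.437, rho −0.055, exact permutation p = 0.898; r = −0.51 without the same 2 samples). For YAP1 with ANKRD1 r was 0.33 (exact permutation p = 0.382, rho 0.48, exact permutation p = 0.20; r = 0.23 without them). CCN1 with CCN2 gave r = 0.44 (exact permutation p = 0.0565, rho 0.58, exact permutation p = 0.0777), and r = 0.66 without samples 14 and 17. Adjusted over these 4 relations, the p-values of r were 0.226 to 0.601 and those of rho 0.311 to 0.898.

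The genes whose deviations from the group means were most like those of YAP1, among all named genes, were RHCG (r = 0.92), CCDC121 (0.90), C1orf54 (0.90), NXPE4 (0.88) and ICAM3 (0.88), over 10 arrays. For CCN2 they were STK32A (0.97), UBALD1 (0.95), CROCC (0.95), PTGES (0.94) and GGT5 (0.93). These values describe likeness after the search of all genes, and among the 10 genes only CCDC121 was called between the lines (−0.47, adjusted p = 0.00831 by limma).

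The place of YAP1 in the genome was also examined, since the choice of genes did not use it. Of the 10 nearest measured genes on chromosome 11, 5 on each side, 1 rose and 0 fell by limma, a count near the 9.60% called and 4.03% called higher among all named genes, and the median difference was 0.031. The gene that rose was CFAP300, a gene of cilia assembly and the nearest measured gene before YAP1. Its level was 2.57, 2.71, 2.81, 2.59 and 2.86 in wild-type samples 2, 8, 11, 14 and 17 and 3.69, 3.34, 3.06, 3.76 and 3.69 in SOD1(G93A) samples 3, 9, 12, 15 and 18. All SOD1(G93A) arrays were above all wild-type arrays, although every value lay under the array's lower quartile. The rise was 0.80 (SE 0.13, adjusted p = 0.00324 by limma), and 0.74 to 0.91 without any 1 array. The other 9 neighbours, CNTN5, PGR, TRPC6 and ANGPTL5 before and BIRC2, TMEM123, MMP7, MMP20 and MMP27 after, differed by −0.085 (ANGPTL5) to 0.096 (MMP7). Of the 10 neighbours 8, CFAP300 among them, lay under the lower quartile on every array, and only BIRC2 and TMEM123 did not, so most of the neighbourhood was read where differences are compressed. Around CCN1 on chromosome 1, 0 of 10 neighbours rose and 1 fell, beside the 9.60% called and 5.57% called lower among all named genes. Of these 10 neighbours, 5 lay under the lower quartile on every array. The gene that fell was the adjacent DDAH1, which encodes an enzyme that breaks down methylated arginines (−0.23, SE 0.06, adjusted p = 0.0429 by limma). The DDAH1 call was lost without any 1 of 9 arrays, all but SOD1(G93A) sample 18 (adjusted p up to 0.102).

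**Figure D3:**
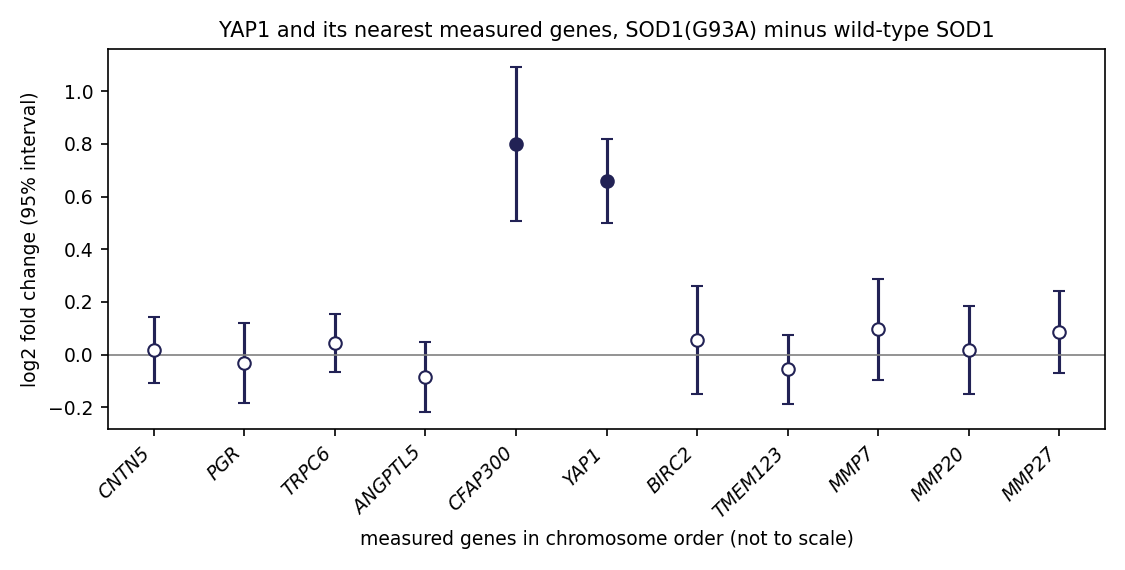
The vertical axis is the log2 fold change, SOD1(G93A) minus wild-type SOD1, with 95% intervals of limma (n = 5 arrays each), and the horizontal axis is gene order with no scale of distance; filled dots were called. CFAP300 (0.80) and YAP1 (0.66) are the only filled dots among the 11 genes.

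The rest of the pathway was described from lists of regulators. Of 48 measured kinases, scaffolds, junction proteins, antagonists and cofactors (60 listed), 4 rose and 3 fell by limma, or 14.6% against 9.60% of all named genes, and the median difference was 0.0052. In the kinase module 0 of 14 genes rose and 3 fell, by the unmoderated test as well. By limma this was 21.4% called, against 9.60% of all named genes (5.57% lower). The same 3 had an unadjusted p under 0.05, a count near the 21.7% of named genes that passed it. TNIK, a kinase related to MAP4K4 that also acts in Wnt signalling, fell by 0.63 (SE 0.08, adjusted p = 0.000576). STK38L, also called NDR2, is a close relative of the LATS kinases and fell by 0.46 (SE 0.09, adjusted p = 0.00954). MOB1B, a coactivator of LATS kinases, fell by 0.31 (SE 0.08, adjusted p = 0.0322), and its groups overlapped. The MOB1B call was lost without any 1 of 8 arrays (all but wild-type sample 8 and SOD1(G93A) sample 18; adjusted p up to 0.0810). The core genes STK3, STK4, SAV1, LATS2 and MOB1A were not called, with differences from −0.023 (LATS2) to 0.25 (STK3).

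Among upstream and junction genes, 3 of 21 rose and 0 fell by limma, or 14.3% called against 9.60% of all named genes (4.03% higher). By the unmoderated test and by limma with an intensity trend, 1 fell, and 1 was lower at an unadjusted p under 0.05 in the main test. In the main test the lower gene was DCHS1 (−0.20, SE 0.05, adjusted p = 0.0508 by limma). Its groups did not overlap, as was so for 11.4% of all named genes. FAT4, a giant cadherin that acts as a receptor upstream of Hippo signalling, rose by 1.01 (SE 0.10), from 5.59 ± 0.23 to 6.60 ± 0.08 (SD, n = 5 each; adjusted p = 0.000126 by limma). FRMD6, a FERM-domain protein that activates the kinases, rose by 0.48 (SE 0.06, adjusted p = 0.000339). AMOT, encoding angiomotin, which holds YAP at junctions and on actin, rose by 0.26 (SE 0.06, adjusted p = 0.0211). The AMOT call was lost without wild-type sample 2 or either of SOD1(G93A) samples 9 and 15 (highest adjusted p 0.0588). NF2, which encodes Merlin, was not called (−0.10, SE 0.05). The list of kinase antagonists also held kinases whose role as antagonists is not settled, STK26 (MST4) among them. In this list 1 of 10 genes rose and 0 fell by limma, or 10% called against 9.60% of all named genes. The gene that rose was STK26 (0.43, SE 0.10, adjusted p = 0.0256 by limma). That call was lost by the unmoderated test (adjusted p = 0.0524), without any of wild-type samples 2, 8, 14 and 17 and SOD1(G93A) sample 15 (highest adjusted p 0.0673), and without samples 17 and 18 together (adjusted p = 0.0914). Of the VGLL cofactors, which compete with YAP for TEAD factors, 0 of 3 measured were called by limma and 0 by the unmoderated test, and 0 had an unadjusted p under 0.05, but VGLL1 and VGLL3 lay under the lower quartile on all 10 arrays. VGLL4 had no probe set of its own and was not measured, so these counts say little about the cofactors.

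A published set of 22 genes that respond to YAP and TAZ in tumours holds CCN1, CCN2 and ANKRD1, and it split evenly. Of 19 measured, 3 rose and 3 fell, or 31.6% against 9.60% of all named genes, and the median difference was 0.013. CCDC80, a secreted matrix protein gene, rose by 2.16 (SE 0.17), from a level of 3.68 ± 0.20, under the lower quartile, to 5.85 ± 0.36 (SD, n = 5 each; adjusted p = 1.21e-05 by limma). ASAP1, which encodes a regulator of ARF GTPases, rose by 0.32 (SE 0.07, adjusted p = 0.0142), and CCN1 was the third gene that rose. The ASAP1 call was lost without samples 17 and 18 together (adjusted p = 0.0641). FJX1, the human relative of the fly gene four-jointed, fell by 0.61 (SE 0.09, adjusted p = 0.00133). IGFBP3, an IGF-binding protein gene, fell by 0.56 (SE 0.08, adjusted p = 0.000995), and the stress gene GADD45A fell by 0.44 (SE 0.10, adjusted p = 0.0172). Besides CCN2 and ANKRD1, the members MYOF, CRIM1 and TGFB2 also had means under the lower quartile and were not called.

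**Figure D4:**
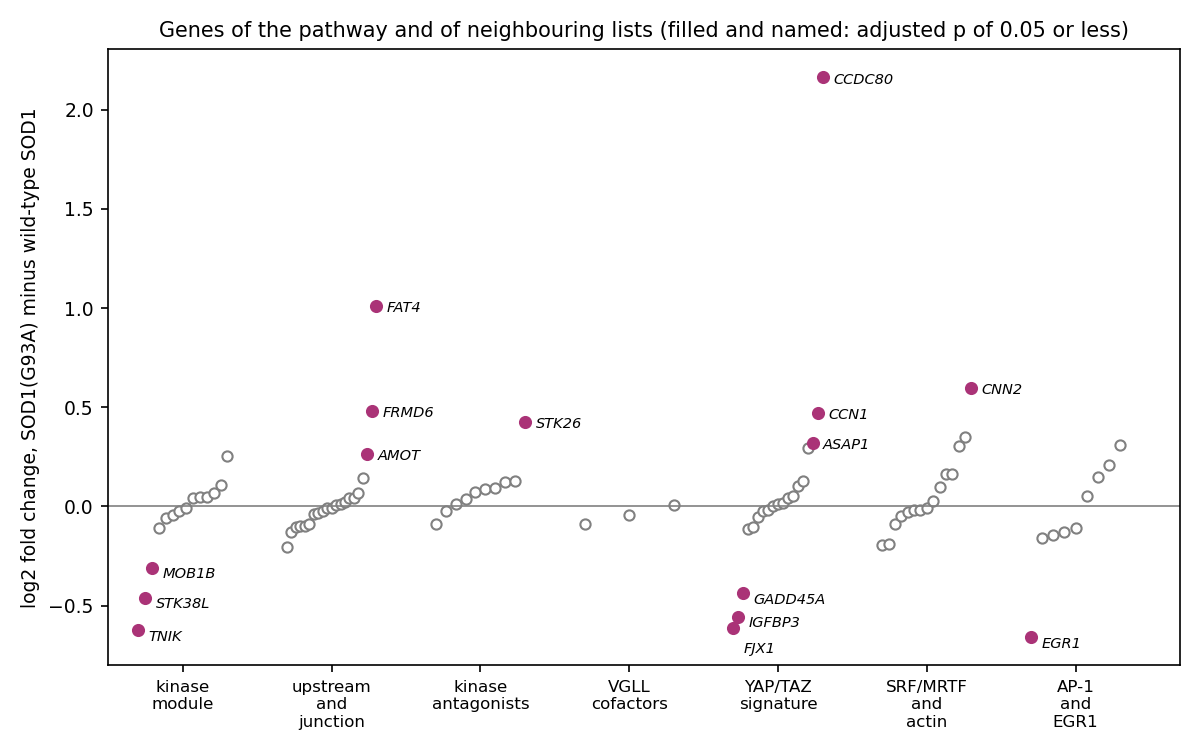
Each dot is a measured gene; the vertical axis is the log2 fold change, SOD1(G93A) minus wild-type SOD1 (n = 5 arrays each), and genes are ordered by it within each list along the horizontal axis. Filled dots were called: all 3 in the kinase module lie below 0, all 3 among upstream and junction genes lie above it, and the YAP/TAZ signature has 3 on each side.

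CCN1, CCN2 and ANKRD1 also answer to serum response factor (SRF) and AP-1. Of 15 SRF and actin genes 1 rose and 0 fell by limma and by the unmoderated test, or 6.67% against 9.60% of all named genes. At an unadjusted p under 0.05, which 21.7% of named genes passed, 4 were higher and 1 lower. The gene that rose was CNN2, encoding the actin-binding calponin 2 (0.60, SE 0.11, adjusted p = 0.00470). Of 9 AP-1 and immediate early genes 0 rose and 1 fell, or 11.1% against 9.60% of all named genes (5.57% lower). The gene that fell was EGR1, a growth factor response gene (−0.66, SE 0.11, adjusted p = 0.00305 by limma). At an unadjusted p under 0.05, beside the same 21.7% of named genes by limma, 2 of these 9 were higher and 1 lower by limma. By the unmoderated test 1 was higher and 2 were lower. Of the other 4 CCN genes 1 was called, or 25% against 9.60% of all named genes. It was CCN3, which rose by 0.17 (SE 0.04, adjusted p = 0.0394 by limma). That call was lost in every omission of 1 array (adjusted p up to 0.0926) and with an intensity trend. Neither of the 2 measured relatives and partners of ANKRD1, ANKRD2 and TTN, passed limma's threshold or that of the unmoderated test, and 0 had an unadjusted p under 0.05. TTN lay under the lower quartile on all 10 arrays, as did CCN4 and CCN6, which were not called.

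Markers of cell states moved between the lines beside these genes, and their part in the results on YAP1 and CCN1 was not tested; in bulk RNA, more cells of a type and more RNA per cell cannot be told apart. Of 11 measured markers of the mesenchymal (S-type) state, 3 rose and 1 fell, or 36.4% called against 9.60% of all named genes: CD44 rose by 0.47 (SE 0.07), the fibronectin gene FN1 by 0.46 (SE 0.06) and the vimentin gene VIM, named after its value was seen, by 0.37 (SE 0.08), while SNAI2, which encodes the transcription factor SLUG, fell by 1.03 (SE 0.10). The FN1 call was lost with the mean of all its probe sets (0.23, adjusted p = 0.204 by limma). The mean level of the list ranged over the arrays from 7.17 to 7.39 with wild-type SOD1 and from 7.25 to 7.36 with SOD1(G93A), and PRRX1 was below the lower quartile. Of 10 measured noradrenergic markers, which SH-SY5Y is known to express, none lay below the lower quartile. Of these, 3 rose and 2 fell, or 50% called against the same 9.60%, with CHGB higher by 1.40 (SE 0.15), CHGA higher by 1.06 (SE 0.12) and GATA2 lower by 0.58 (SE 0.08). The other fall was that of GATA3 (−0.38, SE 0.07, adjusted p = 0.00732 by limma), which kept its call in 19 of 19 alternatives. The third rise, of DDC (0.28, SE 0.06), lost its call in 5 of 19 alternatives (adjusted p up to 0.0846 by limma). The mean level of the noradrenergic list ranged from 9.47 to 9.68 and from 9.65 to 9.91. Of 4 Schwann cell markers 1 rose, or 25% against 9.60% of all named genes (4.03% higher). It was S100B, higher by 0.73 (SE 0.11) from a level of 3.69 ± 0.16 (SD, n = 5), under the lower quartile, where differences are compressed. ERBB3 lay under the lower quartile on all 10 arrays. The list means were 4.17 to 4.21 and 4.27 to 4.50. By limma, which called 9.60% of all named genes, and by the unmoderated test 0 of 5 immune, 0 of 5 endothelial and 0 of 6 epithelial markers were called. At an unadjusted p under 0.05, which 21.7% of named genes passed by limma, limma had 0, 0 and 2 of them and the unmoderated test 0, 1 and 2. Their largest differences were 0.25 (MS4A1), −0.081 (CDH5) and −0.41 (KRT18). The immune PTPRC and CD3E, the endothelial PECAM1, KDR and TEK, and the epithelial EPCAM and CDH1 had means under the lower quartile, where differences are compressed. The immune means were 4.04 to 4.23 with wild-type SOD1 and 4.11 to 4.19 with SOD1(G93A), the endothelial means 3.18 to 3.34 and 3.20 to 3.26, and the epithelial means 5.24 to 5.37 and 5.14 to 5.24.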

How the data were processed

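RNA of 10 arrays was analysed from the deposited table of 22011 probe sets. The authors deposited gene-level log2 values made with RMA, per the submitters' processing notes, in oneChannelGUI 1.6.5, per the labels; the sources used here name no genome build or filter. Of the probe sets, 14432 had 1 gene symbol, 2408 several and 5171 none. Symbols were updated by gene identifier through RefSeq (GRCh38.p14), where 28 had no match. The members and gene lists were chosen with earlier results of these data known, and the signature and pathway lists come from general knowledge of the field. Groups came from the sample titles. Groups were compared with lmFit and eBayes of limma 3.58.1 (R 4.3.3), 2-sided, and p was adjusted over the 22011 probe sets by Benjamini-Hochberg; the code was tested on simulated data. Single values were compared by exact permutation tests, 2-sided, and within-group relations by exact permutation of deviations within groups. Intervals are 95%; those of differences between 2 genes use the pooled variance of the 10 arrays. No set test was run. Named from each list were at most 5 called genes per direction, and at most 3 markers by size of difference, with VIM, DDC and GATA3 added after their values were seen. Core genes, NF2 and dim genes that were not called were named for their role, and DCHS1 after its value was seen. Alternatives were the mean of probe sets, other variance models, rescaling, a filter on dim probe sets, array weights, omissions of arrays and, added after seeing the data, a block of consecutive sample numbers. The number of arrays limits the precision.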

Additional observations from a re-analysis of the deposited data

Results flagged for a closer look

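In 4 of 72 groups of 5 arrays (36 genes), 1 array lay apart by Dixon's ratio of its gap to the group's range, with a critical value of 0.71; chance gives about 1 in 20. TEAD3 was 6.63 in SOD1(G93A) sample 15 and 6.84 to 6.91 in the other 4 arrays of that group (ratio 0.746). VIM was 11.24 in the same sample and 10.85 to 10.94 in the others (ratio 0.771). CCDC80 was 5.21 in SOD1(G93A) sample 9 against 5.92 to 6.10 (ratio 0.790), and IGFBP3 was 6.67 in that sample against 6.91 to 7.0 (ratio 0.712).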

How the results depend on the processing

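YAP1 kept its rise and its call in 19 alternatives (0.61 to 0.69). CCN1 kept its rise in the 18 that could test it (0.38 to 0.53) and its call in 17 of them; the exception is the block of consecutive sample numbers described next. No label pairs the arrays, and the groups share no sample number, but the numbers run in 5 consecutive sets (2 and 3, 8 and 9, 11 and 12, 14 and 15, 17 and 18), so a fit with these sets as a replicate block was added after seeing the data. The deviations of arrays in a set correlated at −0.034 to 0.14 over all probe sets, and 3 of 10 arrays correlated best with their own set. With this block the difference of CCN1 stayed at 0.47 and was not called (adjusted p = 0.0642 by limma), so 1 member and 2 Hippo regulators were called higher. The calls on MOB1B, AMOT, STK26, CCN3, DDC, VIM and DDAH1 were also lost, and 1213 probe sets were called against 1643. WWTR1, TEAD2, TEAD3, TEAD4 and ANKRD1 stayed uncalled with the same sign in all alternatives that held them. TEAD1 was called with the mean of its probe sets (0.31). With only the probe sets above the median level, WWTR1, CCN1, CCN2, ANKRD1 and CFAP300 could not be tested; 1 member and 1 signature gene were then called higher, and 92 probe sets passed both thresholds against 192. Without 1 array, the difference of CCN2 ranged from −0.027 to 0.078, below 0 without SOD1(G93A) sample 12, and that of CCN2 minus ANKRD1 from −0.10 to 0.051, above 0 without SOD1(G93A) sample 9. Of the Hippo regulators 2 to 4 were then called higher, against 4. The r of YAP1 with CCN1 ranged from −0.51 to 0.33, above 0 without wild-type sample 17, and was 0.42 without samples 17 and 18 together; that of YAP1 with CCN2 ranged from −0.39 to 0.026, above 0 without SOD1(G93A) sample 9. The relation of CCN1 with CCN2 had an unadjusted exact p under 0.05 without SOD1(G93A) sample 12 (r = 0.60), with arrays centred on their medians (0.46) and with quantile normalization repeated (0.43). The causes were not tested. Signals under the lower quartile limit what CCN2, ANKRD1 and CFAP300 can show.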
